A study of Mus musculus with 3 samples.

Results

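The genes described here were 34 adhesion genes of the mouse, chosen by name: 23 cadherins, from Cdh1 to Cdh26, and 11 protocadherins that lie outside the protocadherin clusters. The data are 3 lists of ChIP-seq regions, called where immunoprecipitated chromatin was enriched in sequencing reads, of F123, a male hybrid embryonic stem cell line from a cross of S129/Jae and Cast mice, and the comparison is with all 21938 protein-coding genes. The cells, for which the labels list no treatment, had been grown on feeder fibroblasts and were passaged without feeders before harvest. H3K27me3, the histone mark of Polycomb, was called in 17342 regions, RNA polymerase II phosphorylated at serine 5 (Pol2-S5p) in 29222 regions and polymerase phosphorylated at serine 7 (Pol2-S7p) in 22320 regions. Each mark had 1 library, so nothing here has replicates and no difference was tested. The region lists carry no read counts, and the library depths that the study gives were not used here. The 2 parental copies of a gene were not separated.

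Cadherins are membrane proteins whose extracellular repeats bind calcium and, through it, the cadherins of a neighbouring cell. Classical cadherins reach the actin skeleton through catenins, and embryonic stem cells hold together in colonies mainly by E-cadherin, the product of Cdh1. The other members appear as tissues form: N-cadherin in neural tissue, VE-cadherin in endothelium, many type II cadherins and delta-protocadherins in neurons. Serine 5 phosphorylation marks polymerase that has begun transcription and is also found at genes silenced by Polycomb, whereas serine 7 phosphorylation is found at genes that produce RNA.

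Only 2 members were called Active, the state with both polymerase forms and no H3K27me3 within 2 kb centred on the transcription start. They were Cdh1 and Cdh23, and at the start of its coding transcript Cdh23 carried H3K27me3 and no polymerase. The share was 5.88% of members (exact Clopper-Pearson interval at 95% of 0.720 to 19.7%), against 35.9% of all protein-coding genes. Such intervals cover counting error only. H3K27me3 lay at 25 of 34 member promoters (73.5%, interval 55.6 to 87.1%), against 37.7% of all protein-coding genes. Pol2-S7p lay at 11 (32.4%, interval 17.4 to 50.5%), against 60.4%. Pol2-S5p, in contrast, lay at 22 members (64.7%, interval 46.5 to 80.3%), a share near the 69.9% of all protein-coding genes.

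The remaining promoters were divided by the marks they held. PRCa promoters, with H3K27me3 and both polymerase forms, were Cdh2, Cdh3, Cdh4, Cdh24, Pcdh1, Pcdh8, Pcdh10, Pcdh17 and Pcdh19, and these 9 members (26.5%) were close in share to the 23.9% of all protein-coding genes. PRCr promoters, with H3K27me3 and Pol2-S5p but no Pol2-S7p, were Cdh5, Cdh6, Cdh7, Cdh11, Cdh15, Cdh20, Cdh22, Pcdh7, Pcdh12 and Pcdh15. These 10 members (29.4%, interval 15.1 to 47.5%) compare with 7.66% of all protein-coding genes. H3K27me3 alone was found at Cdh8, Cdh13, Cdh16, Pcdh9, Pcdh18 and Pcdh20, which is 17.6% (interval 6.76 to 34.5%), against 6.02%. Pol2-S5p alone was found at Cdh10, 1 of 34 members, against 2.46%. No mark was found at the Inactive promoters Cdh9, Cdh12, Cdh17, Cdh18, Cdh19 and Cdh26, which is 17.6% of members, against 23.5%.

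**Figure D1:**
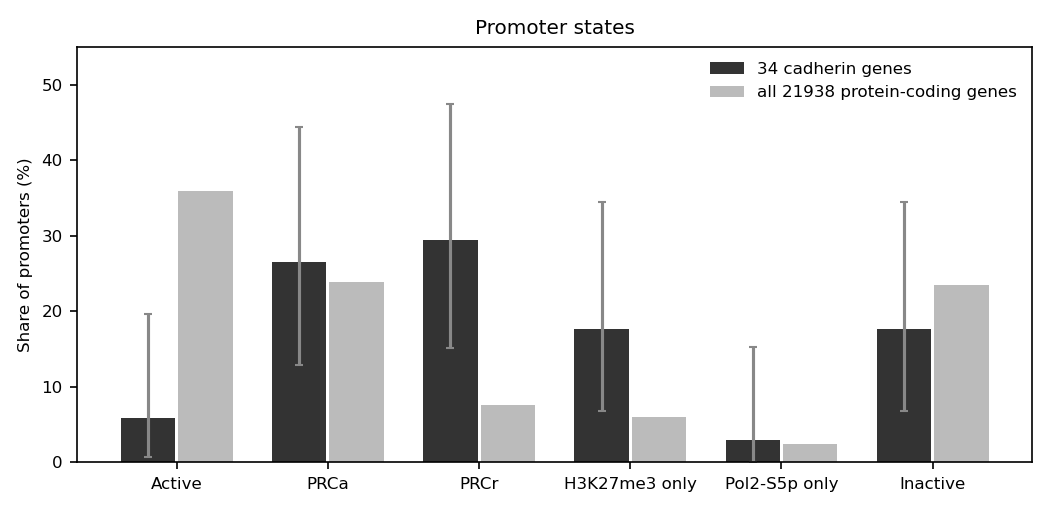
Share of promoters in each state, in percent, for the 34 cadherin and protocadherin genes (dark bars, with exact 95% intervals for counting error) and for all 21938 protein-coding genes (light bars). Active promoters make up 5.88% of the members and 35.9% of all protein-coding genes, and PRCr promoters 29.4% and 7.66%.

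Members are long genes, with a median length of 115 kb, against 17.4 kb for all protein-coding genes. Among the 18 members of 100 kb or longer, H3K27me3 lay at 13 promoters (72.2%, interval 46.5 to 90.3%), against 54.9% of all protein-coding genes of that length, a value inside the interval. Pol2-S5p lay at 12 of the 18 (66.7%, interval 41.0 to 86.7%), below the 84.3% of long protein-coding genes, which is inside the interval. Pol2-S7p lay at 4 of the 18 (22.2%, interval 6.41 to 47.6%), against 64.7% of long protein-coding genes. The low share of Pol2-S7p was thus also present among long genes, whereas the share with H3K27me3 was closer to that of other long genes. PRCa promoters were 3 of the 18 (16.7%, interval 3.58 to 41.4%), against 34.8% of long protein-coding genes, a value inside the interval. PRCr promoters were 7 of the 18 (38.9%, interval 17.3 to 64.3%), against 14.9%. The low share of Pol2-S7p was not seen under every filter. With polymerase regions over 10 kb left out, Pol2-S7p lay at 8 members (23.5%), against 25.8% of all protein-coding genes. Pol2-S5p then lay at 17 (50.0%), against 33.0%, and the share with H3K27me3 was 76.5%, against 39.6%. Where regions were instead kept only if they scored above their list median, Pol2-S7p lay at 4 members (11.8%), against 36.4%. Why the shares changed was not tested.

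The promoter sequences of 22 members matched the RefSeq table of GRCm38.p6, each covering 250 bases before and 50 after the annotated start. Cdh1, Cdh2, Cdh3, Cdh4, Cdh5, Cdh11, Cdh13, Cdh16, Cdh17, Cdh19, Pcdh1 and Pcdh12 were not matched. Promoters among the richest in CpG of each marked state are shown here beside an Inactive one, with CpG in capitals, to give the upper end of the range of CpG content at marked promoters. Cdh22 (chr2:165234688-165234987, minus strand, PRCr) holds 38 CpG, Cdh24 (chr14:54641315-54641614, minus strand, PRCa) 30, Pcdh17 (chr14:84443313-84443612, plus strand, PRCa) 26 and Pcdh18 (chr3:49757267-49757566, minus strand, H3K27me3 only) 23. Cdh9 (chr15:16728665-16728964, plus strand, Inactive) holds 8. Marked promoters were not all rich in CpG: Pcdh20 holds 4, Cdh23 5, Cdh15 7 and Cdh6 8. The median was 18 (4 to 38) over the 17 promoters with H3K27me3 at the RefSeq start and 8 (2 to 9) over the 5 without it.
Cdh22: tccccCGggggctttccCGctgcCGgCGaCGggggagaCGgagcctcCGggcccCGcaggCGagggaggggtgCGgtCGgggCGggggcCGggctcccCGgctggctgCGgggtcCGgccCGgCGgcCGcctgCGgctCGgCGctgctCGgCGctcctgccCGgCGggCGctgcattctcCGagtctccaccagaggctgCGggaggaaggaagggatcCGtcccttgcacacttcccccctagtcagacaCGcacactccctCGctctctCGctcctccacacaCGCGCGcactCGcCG
Cdh24: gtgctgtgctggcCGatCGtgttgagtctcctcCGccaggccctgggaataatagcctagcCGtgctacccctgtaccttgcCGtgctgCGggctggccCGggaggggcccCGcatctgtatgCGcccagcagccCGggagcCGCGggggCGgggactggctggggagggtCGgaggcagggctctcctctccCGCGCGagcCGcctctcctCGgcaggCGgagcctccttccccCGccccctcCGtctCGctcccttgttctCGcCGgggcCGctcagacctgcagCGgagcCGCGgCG
Pcdh17: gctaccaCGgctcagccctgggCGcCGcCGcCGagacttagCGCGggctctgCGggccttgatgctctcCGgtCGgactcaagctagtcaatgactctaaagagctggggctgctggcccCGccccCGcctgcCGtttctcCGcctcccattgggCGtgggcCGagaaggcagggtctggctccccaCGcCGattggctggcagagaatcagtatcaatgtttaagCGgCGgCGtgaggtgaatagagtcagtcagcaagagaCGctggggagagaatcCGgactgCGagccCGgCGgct
Pcdh18: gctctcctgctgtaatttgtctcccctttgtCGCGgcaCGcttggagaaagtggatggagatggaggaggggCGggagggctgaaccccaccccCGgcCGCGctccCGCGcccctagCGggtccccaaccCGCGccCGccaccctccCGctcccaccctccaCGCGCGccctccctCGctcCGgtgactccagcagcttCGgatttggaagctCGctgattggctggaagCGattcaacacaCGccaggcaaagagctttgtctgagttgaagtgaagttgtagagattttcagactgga
Cdh9: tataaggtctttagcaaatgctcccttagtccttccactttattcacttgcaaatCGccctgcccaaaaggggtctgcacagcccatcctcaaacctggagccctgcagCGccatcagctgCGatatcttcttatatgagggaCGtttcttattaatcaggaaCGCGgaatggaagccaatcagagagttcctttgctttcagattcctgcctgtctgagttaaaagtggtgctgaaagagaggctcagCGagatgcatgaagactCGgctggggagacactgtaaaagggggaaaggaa

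Over the 22 promoters the median was 13 CpG in 300 bases, against 14 for 20150 protein-coding promoters in the same table, and 23.3% of these protein-coding promoters held at least as many as Pcdh17. The letters CAGGTG, an E-box that Snail and Zeb repressors can bind, were found on either strand in 3 of these 22 members, Cdh7, Pcdh7 and Pcdh15. They were found in 19.7% of protein-coding promoters. Cdh1 had no matched sequence and was not searched. Over the full window of 2 kb at the chosen start, the ratio of observed to expected CpG was compared. Its median was 0.619 in the 25 members with H3K27me3 (0.156 to 0.849) and 0.239 in the 9 without it (0.120 to 0.626). The ranges overlap. The ratio of 0.239 is that of Cdh23 at its noncoding start. At the coding starts, Cdh23 (0.172) had H3K27me3 and Pcdh15 (0.395) had none. Cdh4 had 0.832 at its coding start and 0.250 at its chosen start. Cdh1, at 0.626, lay above the median of the members with H3K27me3 and carried none. In the other direction, Cdh16 (0.156), Pcdh12 (0.221), Cdh15 (0.227) and Cdh5 (0.236) carried H3K27me3 at promoters poor in CpG, and for Cdh16, Cdh15 and Cdh5 the region was over 10 kb wide.

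The type I classical cadherins, which build junctions in epithelium, nerve and muscle, had Pol2-S7p at 4 of 5 promoters, against 60.4% of all protein-coding genes. Cdh1 (E-cadherin, chr8:106603351-106670246) lay in a Pol2-S5p region of 90.6 kb with a score of 11.4 and in a Pol2-S7p region of 72.8 kb with a score of 11.0. The score is the value of the peak finder, whose unit is not given in the sources used here, and is compared only within a list. Both regions began just before the coding start, 0.751 kb upstream for Pol2-S5p and 0.351 kb for Pol2-S7p, and ran past the end of the gene, so that 100% of the body was covered by each polymerase form and 0% by H3K27me3. The Pol2-S5p region also held the start of Tango6, 79.0 kb further on. Cdh1 was the only member with both polymerase forms over its whole body and no H3K27me3. The H3K27me3 region nearest to its coding start was 91.2 kb away, at Cdh3.

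Cdh3 (P-cadherin, chr8:106510891-106557297), the neighbour upstream of Cdh1 on the same strand, was PRCa. Its start lay in an H3K27me3 region of 5.8 kb (score 21.1), a Pol2-S5p region of 5.2 kb (score 12.96) and a Pol2-S7p region of 1.4 kb (score 22.6). A further Pol2-S5p region of 50.6 kb (score 6.44, below the list median of 10.8) covered most of its body. In all, Pol2-S5p covered 94.0% of the body, Pol2-S7p 4.11% and H3K27me3 2.82%. Adjacent genes of the same family thus had full cover by Pol2-S5p with Pol2-S7p (Cdh1) and nearly full cover by Pol2-S5p with little Pol2-S7p (Cdh3).

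Cdh2 (N-cadherin, chr18:16588877-16809246), whose protein replaces E-cadherin when cells leave the epithelium, was also PRCa. Its promoter held the highest H3K27me3 score of all 34 members, 24.3, over 3.4 kb, with 97.1% of the regions in the list below it. Pol2-S5p covered 4.0 kb there with a score of 10.0, and Pol2-S7p 3.0 kb with a score of 4.03, the lowest Pol2-S7p score among the 11 members that had one. Beyond the promoter the gene of 220 kb was bare: each mark covered between 1.20 and 1.38% of it.

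Cdh4 (R-cadherin of retina and brain, chr2:179442431-179899373) differed between its coding start and its body. At the coding start a Pol2-S5p region of 1.6 kb had a score of 25.4 and a Pol2-S7p region of 1.4 kb a score of 20.6, inside an H3K27me3 region of 104 kb with a score of 5.87. A second H3K27me3 region, 427.4 kb wide with a score of 4.83, covered most of the gene, and 94.4% of the body was covered in all. The start chosen by Pol2-S5p cover belongs to a noncoding transcript 451 kb further down, in a Pol2-S5p region of 82.8 kb (score 6.76) and a Pol2-S7p region of 1.4 kb (score 9.30), and was PRCa as well. Cdh15 (M-cadherin of muscle, chr8:122847966-122867397) was the type I member without Pol2-S7p at its promoter. It lay in an H3K27me3 region of 41.8 kb (score 9.22) and a Pol2-S5p region of 85.4 kb (score 12.1), which covered 99.0% and 100% of its body, and the nearest Pol2-S7p region was 16.6 kb from the start.

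**Figure D2:**
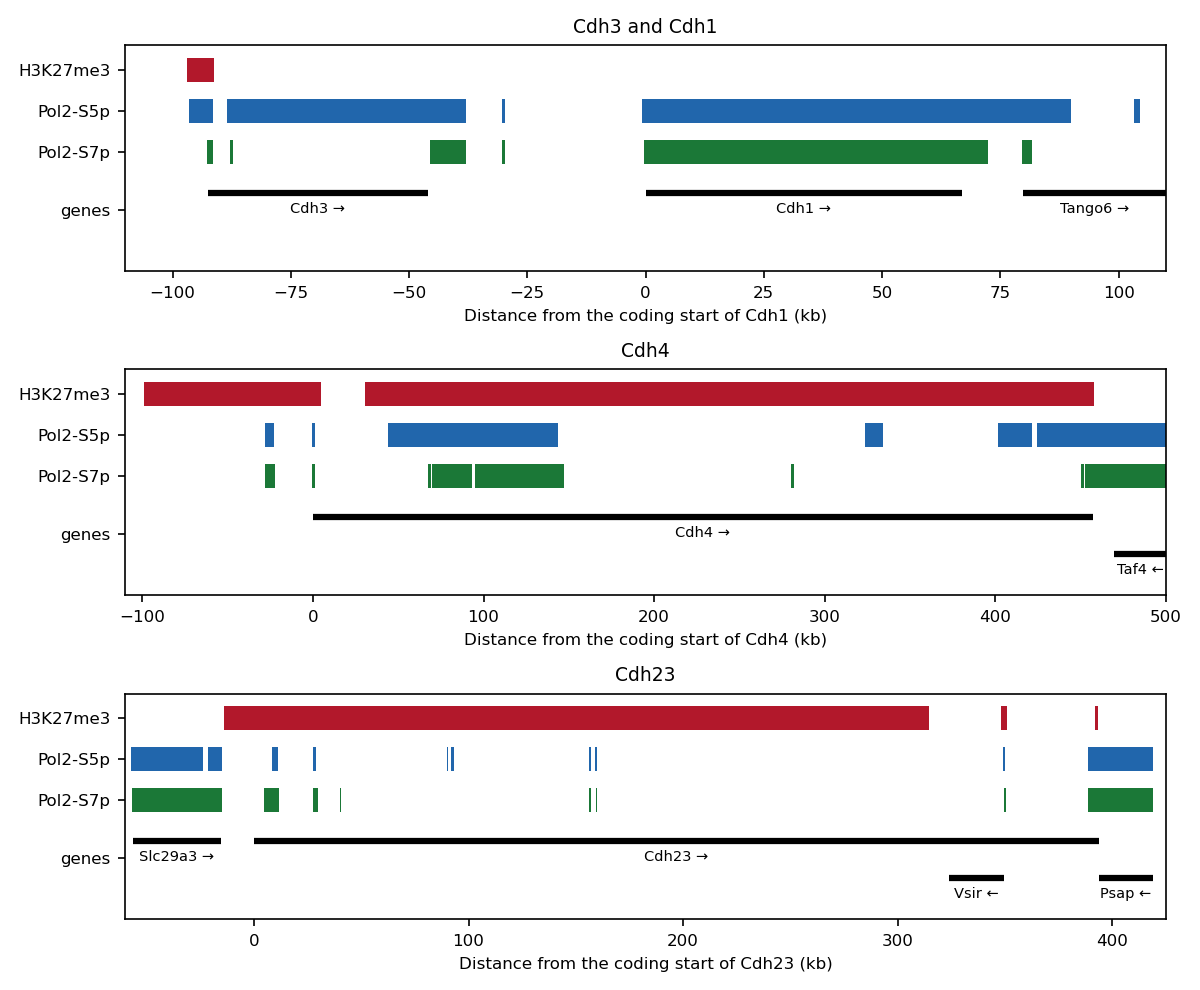
Regions of each mark around Cdh3 and Cdh1, Cdh4 and Cdh23, drawn to scale in kb from the coding start of the gene named on each axis, with genes as black bars and their direction as arrows. Both polymerase forms cover Cdh1 without H3K27me3, Pol2-S5p covers Cdh3 almost alone, and H3K27me3 covers most of Cdh4 and Cdh23.

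The 13 type II classical cadherins, many of which sort neurons, had Pol2-S7p at 1 promoter, that of Cdh24, against 60.4% of all protein-coding genes. Cdh24 (chr14:54631231-54641364) is a gene of 10.1 kb whose start window overlaps that of Gm17606, 412 bp away, so the marks there cannot be given to either gene. It lay in a Pol2-S5p region of 113 kb (score 10.7) and a Pol2-S7p region of 131 kb (score 14.8), both of which held the starts of Psmb5, Psmb11 and Acin1 too, and in an H3K27me3 region of 17.2 kb (score 13.3) that began 435 bp upstream. All 3 marks covered 100% of its body.

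Of the other type II cadherins, 6 were PRCr. Cdh22 (chr2:165111507-165234853), a cadherin of brain and pituitary, lay in an H3K27me3 region of 235.6 kb (score 10.3) that covered its whole body and also held the start of Cd40. Its Pol2-S5p region of 2.2 kb had a score of 15.2, the highest at any chosen member start. Cdh5 (VE-cadherin, chr8:104101625-104144511) lay in an H3K27me3 region of 94.2 kb (score 7.21), 81.6 kb of it upstream, with a Pol2-S5p region of 1.4 kb (score 6.90). A Pol2-S7p region ended 1.43 kb before its start, just outside the window. The other PRCr type II genes had narrow H3K27me3 regions.

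Cdh6 (K-cadherin of kidney, chr15:13028701-13173675) had 7.6 kb of H3K27me3 (score 11.7) with 1.6 kb of Pol2-S5p (score 7.96), and Cdh11 (osteoblast cadherin, chr8:102632095-102785642) had 5.2 kb (score 21.96) with 3.4 kb of Pol2-S5p (score 7.05). Cdh20 had 3.4 kb (score 13.6) with 2.8 kb of Pol2-S5p (score 4.66), the lowest Pol2-S5p score of the 22 members that had one. Cdh7 had 2.6 kb (score 13.1), the narrowest H3K27me3 region of the 25, with 2.2 kb of Pol2-S5p (score 6.74). In these 4 genes of 145 to 227 kb, H3K27me3 covered 0.868 to 2.80% of the body.

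Cdh8 (chr8:99024471-99416471), a cadherin of neurons, had H3K27me3 alone, 3.2 kb with a score of 22.01, and its nearest polymerase region was 49.8 kb from the start. Cdh10 (chr15:18818947-19014236) had Pol2-S5p alone: a region of 600 bp (score 6.0) that ended 148 bp before the start, with no region of any mark in its body. Cdh9 (chr15:16728756-16857094), expressed in neurons, and Cdh19 (chr1:110888326-110977584), expressed in Schwann cell precursors, were Inactive, and the nearest H3K27me3 regions lay 556 kb and 775 kb from their starts.

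Cdh12 and Cdh18 were Inactive at the chosen start and had marks elsewhere. In Cdh12 (chr15:20449265-21589533) the chosen start was that of a noncoding transcript, 661 kb upstream of the coding start, and both starts were unmarked. Cdh18 (chr15:22549022-23474418) has a further coding start 487 kb downstream, which lay in its only H3K27me3 region, 3.2 kb wide, with no polymerase. The RefSeq start of Cdh18 is at this position. The 5 members on chromosome 15, Cdh6, Cdh9, Cdh10, Cdh12 and Cdh18, all type II, had H3K27me3 at 1 chosen start and Pol2-S7p at 0. The 8 members on chromosome 8, of several types, had H3K27me3 at 7. The share with H3K27me3 was 73.5% over all members and 37.7% over all protein-coding genes. For Pol2-S7p these shares were 32.4% and 60.4%. A difference between chromosomes was not tested.

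Among the other cadherins, Cdh13 (T-cadherin, which is held by a lipid anchor, chr8:118283733-119324921) had H3K27me3 alone, 5.2 kb with a score of 18.4, and a further 9 H3K27me3 regions in its body of 1041 kb, 3.52% of which was covered. Cdh16 (kidney-specific cadherin, chr8:104601911-104624396) had H3K27me3 alone over 30.2 kb (score 8.14), which covered 100% of its body and held the start of Rrad. Cdh17 (liver-intestine cadherin, chr4:11758147-11817895) and Cdh26 (chr2:178430531-178487366) were Inactive. Cdh17 had no region of any mark in its body, and Cdh26 had H3K27me3 and Pol2-S5p regions 15.5 kb from its start.

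Cdh23 (chr10:60302748-60696490) and Pcdh15 (chr10:73099342-74649737), whose proteins form the tip link of inner ear hair cells, were the 2 members whose state differed between the chosen and the coding start. The Active start of Cdh23 was that of a noncoding transcript 391 kb downstream of the coding start, at the end of the gene, in a Pol2-S5p region (score 12.5) and a Pol2-S7p region (score 12.0) of 30.2 kb each. Both regions also held the start of Psap, which runs toward Cdh23 from the other side, and polymerase on the 2 genes cannot be told apart there. The coding start of Cdh23 lay in an H3K27me3 region of 328.8 kb, and H3K27me3 covered 80.9% of the body, Pol2-S5p 3.42% and Pol2-S7p 4.38%. The PRCr start of Pcdh15 was that of a noncoding transcript 723 kb upstream of the coding start, with 9.6 kb of H3K27me3 (score 12.3) and 4.0 kb of Pol2-S5p (score 6.41). At its coding start no mark was found.

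All 11 protocadherins carried H3K27me3 at the chosen start, against 37.7% of all protein-coding genes. At the coding start 10 of them did, against 39.5%. The delta-2 protocadherins, whose cytoplasmic tails bind regulators of actin, had Pol2-S7p at 4 of 5 promoters, against 60.4% of all protein-coding genes. For Pcdh10 and Pcdh17 these calls rested on short regions, and both were PRCr where at least 50% of the window had to be covered. Pcdh8 (paraxial protocadherin of the early mesoderm, chr14:79766775-79771312) had 14.8 kb of H3K27me3 (score 23.4), 6.2 kb of Pol2-S5p (score 11.8) and 2.8 kb of Pol2-S7p (score 7.92). Pcdh10 (chr3:45378398-45435623) had 7.0 kb of H3K27me3 (score 22.6), 5.6 kb of Pol2-S5p (score 11.3) and 400 bp of Pol2-S7p (score 11.2). Pcdh17 (chr14:84443563-84539002), shown above, had 6.2 kb (score 23.2), 5.6 kb (score 9.87) and 600 bp (score 17.3) of the same marks. In Pcdh10 and Pcdh17 the regions were nested: the H3K27me3 and Pol2-S5p regions ended at the same position downstream, and Pol2-S7p reached no more than 363 bp to either side of the start.

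Pcdh19 (chrX:133582860-133688987), mutated in an epilepsy of girls and women, had 22.6 kb of H3K27me3 (score 6.79), 4.4 kb of Pol2-S5p (score 9.17) and 3.8 kb of Pol2-S7p (score 6.32). Pcdh18 (chr3:49743296-49757325), the remaining delta-2 gene, had H3K27me3 alone, 3.2 kb with a score of 11.5, and its nearest polymerase region was 44.5 kb away. The 3 delta-1 genes among the members each had a different state. Pcdh1 (chr18:38185914-38212053) was PRCa within 262.6 kb of H3K27me3 (score 9.02), 16.8 kb of Pol2-S5p (score 8.62) and 68.2 kb of Pol2-S7p (score 4.90), and the H3K27me3 region held the starts of Hdac3, Rell2, Fchsd1 and Arap3 as well. Pcdh7 (chr5:57717967-58133230) was PRCr with 9.4 kb of H3K27me3 (score 19.8) and 4.0 kb of Pol2-S5p (score 11.5). Pcdh9 (chr14:93013410-93890679) had H3K27me3 alone, 6.0 kb with a score of 9.86.

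Of the other protocadherins, Pcdh12 (VE-cadherin-2 of endothelium, chr18:38267089-38284402) was PRCr with 7.0 kb of H3K27me3 (score 9.44), inside a Pol2-S5p region of 48.0 kb (score 7.58) that also held the start of Dele1. Its start is 81.2 kb from that of Pcdh1, outside the H3K27me3 region of Pcdh1. Pcdh20 (chr14:88464743-88471396) had H3K27me3 alone, 3.0 kb with a score of 14.0, which began 3 bp before the start and covered 45.0% of this gene of 6.65 kb. The endothelial members Cdh5 and Pcdh12 were thus both PRCr, with H3K27me3 regions of 94.2 kb and 7.0 kb. Neither state held under every setting. Cdh5 was PRCa with a window of 4 kb, and Pcdh12 had H3K27me3 alone with polymerase regions over 10 kb left out. With only regions above the median score, Cdh5 was Inactive and Pcdh12 had H3K27me3 alone.

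**Figure D3:**
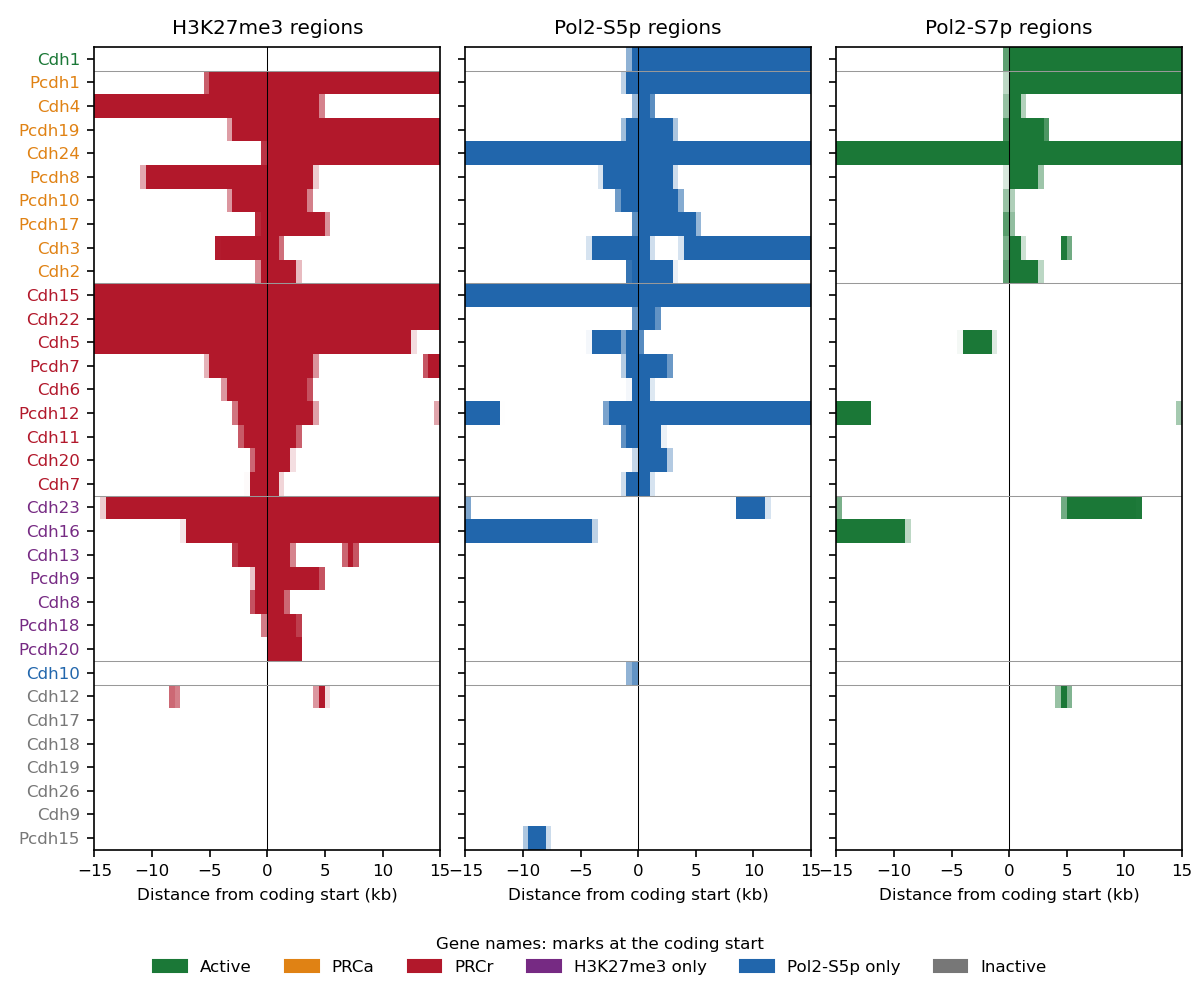
Regions of each mark within 15 kb of the start of the longest protein-coding transcript of each member, with transcription running to the right, in steps of 500 bp shaded by the share covered. Gene names are coloured by the marks at that start, where Cdh23 has H3K27me3 alone and Pcdh15 no mark. The Pol2-S7p segments at Pcdh10 and Pcdh17 are shorter than the Pol2-S5p segments, which lie within H3K27me3.

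H3K27me3 at the members was narrower than at other genes. The median width at the promoter was 7.0 kb over 25 members (2.6 to 427.4 kb), against 16.8 kb over 8281 protein-coding genes. Regions of at most 10 kb were found at 16 of 25 members (64.0%, interval 42.5 to 82.0%), against 41.7% of protein-coding genes with H3K27me3. Among members of 100 kb or longer the count was 10 of 13 (76.9%, interval 46.2 to 94.96%), near the 71.0% of long protein-coding genes with H3K27me3. Among shorter members it was 6 of 12 (50.0%, interval 21.1 to 78.9%), against 35.95%. Narrow regions were therefore nearly as frequent in other long genes as in the long members. Pcdh15, at 9.6 kb, was the widest of the narrow group, and Pcdh8, at 14.8 kb, the narrowest of the rest.

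**Figure D4:**
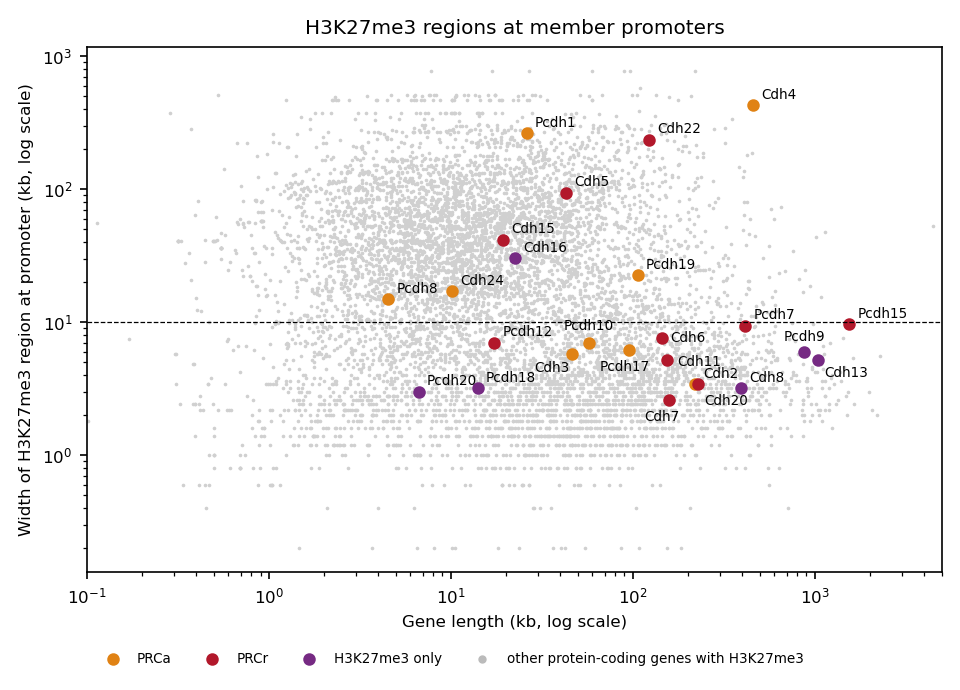
Width of the H3K27me3 region at the promoter (kb) against gene length (kb), both on log scales, for the 25 members with H3K27me3, coloured by state, and for all other protein-coding genes with H3K27me3 in grey. The dashed line marks 10 kb, under which 16 of the 25 members lie, 10 of them genes of 100 kb or longer.

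The narrow regions of the members scored high. Their median score was 16.2 (9.44 to 24.3, n = 16), against 11.8 for the 3457 protein-coding genes with such regions, and all 16 lay above the median of the whole list, 8.23, as did 78.1% of those protein-coding genes. They were also wider than others of their class, with a median of 5.5 kb against 3.4 kb, and reached a median of 2.96 kb downstream of the start and 1.95 kb upstream, with 11 of 16 reaching further downstream. Over protein-coding genes these medians were 1.71 kb and 1.32 kb, and 58.8% reached further downstream. Region scores from 1 library have no replicate error, and whether these differences exceed it was not tested.

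Polymerase at the members scored low. Pol2-S5p regions at the 22 promoters had scores of 4.66 to 15.2 with a median of 9.52, against a median of 12.3 at 15340 protein-coding promoters, 37.5% of which scored above 15.2. The exception among coding starts was that of Cdh4, with 25.4. Only 8 of the 22 scored above the median of the Pol2-S5p list, against 59.1% of protein-coding promoters with Pol2-S5p. For Pol2-S7p it was 3 of 11, namely Cdh3, Cdh24 and Pcdh17, against 55.9%. The coding start of Cdh4, not the start counted here, had a Pol2-S7p score of 20.6, above the list median of 12.7. At the 11 members with a narrow H3K27me3 region and Pol2-S5p, the Pol2-S5p region lay wholly inside H3K27me3 in 8 (72.7%), against 50.0% of such protein-coding genes. Pol2-S7p lay wholly inside in 4 of 4, against 46.7%.

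Gene bodies of the members ranged from bare to fully covered. In 17 of 34 members (50.0%) each mark covered under 5% of the gene, against 31.5% of all protein-coding genes, and among members of 100 kb or longer the count was 14 of 18 (77.8%), against 49.8%. No region at all was found in 3 members (Cdh9, Cdh10 and Cdh17, 8.82%), against 20.02% of all protein-coding genes. For a length of 100 kb or more the order was reversed, with 2 of 18 members (11.1%), against 2.77% of long protein-coding genes. The median cover was 2.88% for H3K27me3, 1.47% for Pol2-S5p and 0.406% for Pol2-S7p, against 0%, 13.2% and 5.37% for all protein-coding genes. Over the 18 long members the medians were 1.72%, 0.937% and 0.406%, against 1.25%, 2.17% and 1.24% for long protein-coding genes. Pol2-S7p covered over 90% of 3 members, Cdh1, Cdh24 and Pcdh1, and of 29.1% of all protein-coding genes. Pol2-S5p covered over 90% of 6 members, against 31.1%. H3K27me3 covered over 90% of 7 members, Cdh4, Cdh15, Cdh16, Cdh22, Cdh24, Pcdh1 and Pcdh8, and of 15.6% of all protein-coding genes.

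**Figure D5:**
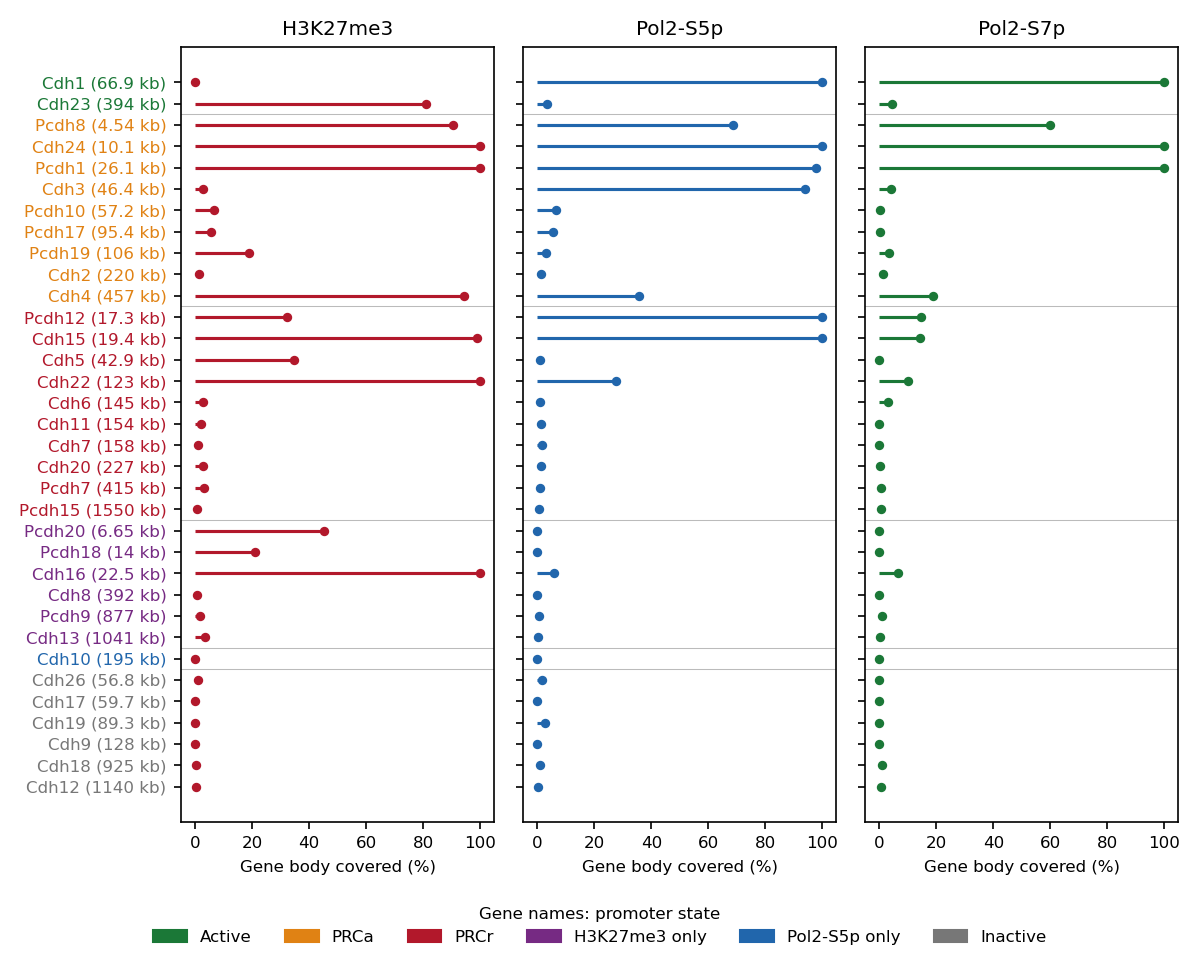
Percent of each gene body covered by regions of each mark, with members grouped by promoter state and ordered by length, which is given beside each name. Pol2-S7p covers 100% of Cdh1, Cdh24 and Pcdh1, and most of the long members are close to 0% for every mark.

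Inside the bodies, polymerase regions away from the starts of members were richer in repeats than those at promoters in some members and not in others. Over 5 kb from every annotated member start and at most 10 kb wide, there were 33 Pol2-S5p regions in 10 members and 28 Pol2-S7p regions in 11 members, and 24 and 23 of these overlapped a region of another mark. Their median share of bases masked as repeats in the reference was 78.0% for Pol2-S5p and 77.6% for Pol2-S7p, against 10.9% and 7.61% for the narrow regions at member promoters. Medians were 86.3% and 93.9% in Pcdh15 and 94.0% and 90.9% in Cdh18, for Pol2-S5p and Pol2-S7p in that order, but 14.9% and 12.8% in Cdh23. Starts of other genes were not left out: a place in Cdh23 with regions of every mark lay over the start of Vsir. Regions that overlapped both other marks had medians of 30.3% for Pol2-S5p and 17.2% for Pol2-S7p (8 regions each). The 19 H3K27me3 regions of this kind, in 8 members, were at 16.2%, against 11.5%. A place in Pcdh9, chr14:93209000-93216599, had regions of 7.6 kb of both H3K27me3 (score 48.0) and Pol2-S7p (score 72.8), 98.6% masked as repeats. A Pol2-S5p region with a score of 215 lay within it. The part of repeats in the polymerase cover of bodies was not tested.

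Members had 151 annotated starts, and 17 of the 30 members with more than 1 start had starts in more than 1 state, 7 of them among coding starts alone. The chosen start and the start of the longest coding transcript gave different states in 2 members, Cdh23 and Pcdh15. At the RefSeq start 4 of 22 members had another state: these same genes, Cdh18 with H3K27me3 alone and Cdh10 with no mark. Of 41 starts at least 10 kb from the coding start, 22 had no mark, 18 had H3K27me3 and 4 had Pol2-S7p.

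Among other genes of cadherin adhesion, the catenins and adaptors had more Active promoters than the members, and the rest of the superfamily had none. Over all protein-coding genes, 35.9% were Active, 23.9% PRCa, 7.66% PRCr, 6.02% H3K27me3 alone and 23.5% Inactive. H3K27me3 lay at 37.7% of them and Pol2-S7p at 60.4%. Of 16 catenins and adaptors, 10 were Active, among them Arvcf, Ctnna1 (alpha-catenin), Ctnna3 and Ctnnal1, and 14 had Pol2-S7p. Ctnnb1 (beta-catenin) and Ctnnd1 (p120-catenin), named here for their role and after their values were seen, were Active too. At the coding starts 8 of the 16 were Active and 7 PRCa, since Arvcf, Ctnnbip1 and Pkp4 were PRCa there. Neural Ctnna2 and Ctnnd2, with Afdn and Pkp3, were PRCa, Pkp1 was PRCr, and Vcl (vinculin) had Pol2-S5p alone at its chosen start and was Active at its coding start. Of 24 further genes of the superfamily (desmosomal cadherins, Fat, Dachsous, flamingo and calsyntenin genes among them), none was Active. Of these 24, 10 were PRCa, among them Celsr1 and Celsr2, and 7 PRCr, among them Dchs1 and Dchs2. H3K27me3 lay at 18, Pol2-S7p at 10 and H3K27me3 alone at 1, against 25, 11 and 6 of the 34 members. At the coding starts 0 of the 24 were Active, 10 PRCa and 7 PRCr. Of 9 repressors of Cdh1, 5 were PRCa (among them Snai1, Snai3, Tcf3 and Twist1) and 3 PRCr (Snai2, Twist2 and Zeb2), and Tcf4 was Active. All 8 stem cell markers had Pol2-S7p, 6 of them in the Active state and Klf4 and Sox2 as PRCa, although Esrrb had H3K27me3 alone at its coding start. Of 8 fibroblast markers, 1 (Fbn1) had Pol2-S7p at its chosen start and none at its coding start, 3 were Inactive, and Col1a1 and Col1a2 had H3K27me3 alone. Of 6 genes of early differentiation, 5 were PRCa and T was PRCr.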

How the data were processed

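The authors used Bowtie2 2.3.4.3 to place 75 bp single-end reads on mm10, in which strain variants were masked, and called regions in each library with a Bayesian change-point peak finder in histone mode. The deposited width, an other kind of value, is in bp and a multiple of 200. The deposited score has no stated unit and was used only within a list.

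Genes came from GENCODE release M21 on GRCm38 (mm10), with positions counted from 1. A promoter was the 2 kb window around a start and held a mark when a region touched it by 1 bp. Of several starts, the one with most Pol2-S5p cover was used, then Pol2-S7p cover, the longest transcript and the first identifier. Read thresholds and the removal of overlapping genes in the study were not applied. Body cover is the percent of the gene record in regions. The members and the gene lists were chosen with earlier results of these data known. Every member is named with its state. Position, width and score are given for members with Pol2-S7p and for up to 6 members in each other state, by H3K27me3 width, then length, and for some others by way of description. Genes of the other lists were limited to 4 per state. The functions were tested on simulated data, where the states of 500 of 500 genes were recovered. Python 3.11.15, NumPy 2.4.6, pandas 2.3.3, SciPy 1.17.1, Matplotlib 3.10.9 and pysam 0.24.0 were used.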

Additional observations from a re-analysis of the deposited data

How the results depend on the processing

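With 1 library per mark there are no replicates to leave out, and the lists hold no reads behind a region. No paired analysis was possible because each mark has 1 library. Of 76 recomputed values, 53 stayed within 1.5 times and 23 moved further. A total of 12 members kept their state under all 7 planned settings for promoters.

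The count of Active members, 2 in the report, was 1 with a window of 1 kb, 1 with a window of 4 kb, 1 at the start of the longest coding transcript, and 1 among starts of coding transcripts by Pol2-S5p cover, a setting chosen after seeing the data. With H3K27me3 regions over 10 kb left out, 16 members had H3K27me3 (47.1%, against 15.8% of protein-coding genes) and 4 were PRCa (11.8%, against 10.4%). The count of Active members was then 7 (20.6%, against 49.4%). With polymerase regions over 10 kb left out, it was 0 (against 9.89% of protein-coding genes), with 10 members of H3K27me3 alone (29.4%, against 18.8%), and the share with Pol2-S7p, 23.5%, was no longer far below that of protein-coding genes, 25.8%. Both settings counted fewer regions, and why the shares changed was not tested. With regions above the median score of each list only, 9 members had Pol2-S5p (26.5%, against 44.7% of protein-coding genes). Pol2-S7p was then at 4 members (11.8%, against 36.4%). There were 1 Active (2.94%, against 22.4%), 1 PRCa (2.94%, against 8.57%) and 5 PRCr members (14.7%, against 5.34%). A further 13 had H3K27me3 alone (38.2%, against 9.46%) and 10 were Inactive (29.4%, against 40.4%). The median body cover by H3K27me3 was 0.348% without the first 5 kb, 1.13% above the median score and 0.811% without regions over 10 kb. For Pol2-S5p these values were 0.282%, 0% and 0.650%, and for Pol2-S7p the median above the median score was 0%.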
